A study of Notophthalmus viridescens with 12 samples.

Results

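The comparison asked which transcripts of the newt dorsal iris changed between 6 h post-lentectomy (hpl) and 1 day post-lentectomy (dpl), the interval that closes the first day after the lens was taken out. It covers 6 of the 12 libraries of the series, 3 from each time point, and the 845634 of 856451 assembled transcripts that reached an abundance of 1 in at least 3 of those 6 libraries. Members were therefore kept by their level and not by their change. All animals were adult, wild-caught Notophthalmus viridescens. Both groups compared had undergone surgical lentectomy under tricaine anesthesia, and the other 6 libraries came from intact eyes with no lentectomy and from eyes at 4 dpl, 3 each. Every library pooled the dorsal irises of both eyes of 3 or 4 animals, so the spread between libraries is a spread between pools.

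The eastern newt regrows a complete lens from the pigment epithelium of the dorsal iris. After lens removal these pigmented cells lose their pigment granules, re-enter the cell cycle and transdifferentiate into lens cells, whereas the ventral iris does not form a lens. The first hours to days precede visible growth of a lens vesicle and are a phase of wound response, in which damaged tissue releases inflammatory signals and the surrounding matrix is remodeled. The table carries assembled transcripts known by an ID alone and pairs none of them with a gene name or a sequence, so the changes are described by number, size, level and time course, the iris could not be checked against marker genes, and no sequence is shown. In bulk tissue, fewer cells of a type and less RNA per cell cannot be told apart.

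The libraries differed in ways that touch the comparison. The values of a library summed to between 33349931 and 40114195 at 6 hpl, and to 35804793, 27737613 and 36888390 in 1 dpl replicates 1, 2 and 3, so 1 dpl replicate 2 had the lowest sum of all 12 libraries. Its 10 highest transcripts also took the smallest part of the sum, 5.37%, against 7.97% to 10.8% in the other libraries compared. Of the transcripts tested, between 6398 and 14604 were listed at 0 in the 6 hpl libraries and 11704, 17367 and 25254 in 1 dpl replicates 1 to 3. The values keep no read depth, so these figures cannot be set against sequencing depth.

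Replicates were less alike at 1 dpl than at 6 hpl. Pearson's r of log2 values across transcripts, which are not independent replicates, ranged from 0.824 to 0.838 for the 3 pairs within 6 hpl and from 0.731 to 0.763 for the 3 pairs within 1 dpl. The 9 pairs that crossed the time points ranged from 0.692 to 0.768, which overlapped the range within 1 dpl. The SD of 3 replicates had a median over transcripts of 0.46 log2 units at 6 hpl, against 0.61 at 1 dpl. Among transcripts with a mean of 100 to 1000 the medians lay further apart, at 0.27 and 0.55.

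Between 6 hpl and 1 dpl, 4970 transcripts (0.588% of those tested) changed by limma with a Benjamini-Hochberg adjusted p under 0.05, and are referred to as called. Of these, 2237 (0.265%) were higher and 2733 (0.323%) were lower at 1 dpl, so 45.0% of the calls were higher. An unadjusted p under 0.05 was found for 111311 transcripts, 45883 of them higher and 65428 lower. Differences are on the log2(abundance + 1) scale, on which the change of a rare transcript comes out too small. The higher calls had a median log2 difference of 2.61, with quartiles of 2.16 and 3.13, and the lower calls one of -2.51, with quartiles of -2.96 and -2.09. No call was smaller than 1.27 log2 units in size, against a median absolute difference of 0.48 over all transcripts tested. Changes of 3 log2 units or more made up 665 higher and 644 lower calls, and those of 4 or more 108 and 95. The median standard error of a call was 0.50 log2 units.

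Which direction held the majority was not settled. Scaling every library to the same total gave 2970 higher and 1814 lower calls (62.1% higher) and moved the median log2 difference of all transcripts tested from -0.03 to 0.11, whereas scaling on abundant transcripts gave 51.2% of 4511 calls higher. Leaving out 1 dpl replicate 1 gave 1652 higher and 4558 lower calls (26.6% higher), and leaving out 1 dpl replicate 2 gave 1991 and 1726 (53.6% higher). Without 1 dpl replicate 3 the share was 44.9% higher. Without 6 hpl replicate 1, 2 or 3 it was 60.9%, 50.1% or 58.3%.

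**Figure D1:**
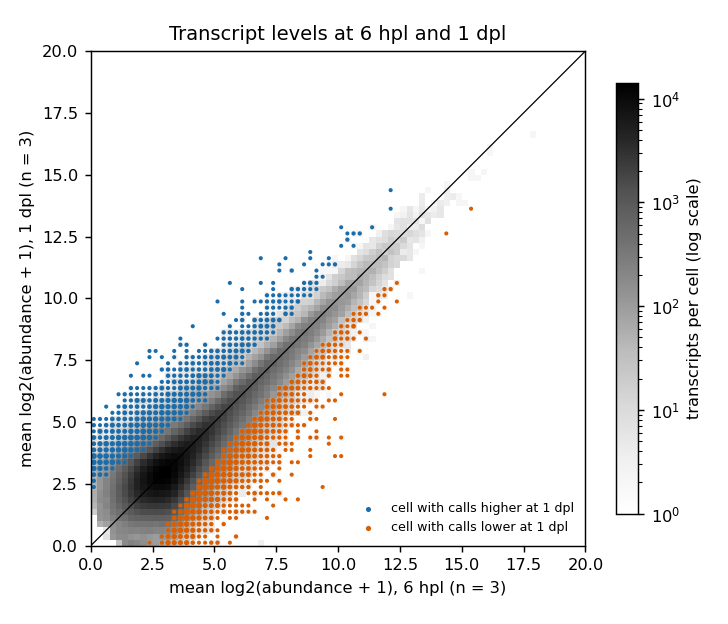
Mean log2(abundance + 1) at 6 hpl (horizontal axis) and 1 dpl (vertical axis), 3 libraries each, for the 845634 transcripts tested. Grey shading gives the number of transcripts per cell on a log scale, blue and orange points mark cells that hold calls higher or lower at 1 dpl, and the line marks equal levels. No call lies closer to the line than 1.27 log2 units along either axis. At low levels the nearest calls lie further from the line than at high levels.

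The number of calls depended on single libraries as well. Omitting 6 hpl replicate 1, 2 or 3 left 1121, 1418 or 1357 calls, and omitting 1 dpl replicate 3 left 1608. An omission also lowers the number of libraries compared, and the part of this in the falls was not tested. Which transcripts were called changed by differing amounts. Most calls left without 6 hpl replicate 1 were kept ones, as 622 of 683 higher and 402 of 438 lower calls were among those made with all libraries. Without 1 dpl replicate 1 it was 1217 of 1652 and 2019 of 4558, and without 1 dpl replicate 2 it was 1214 of 1991 and 1278 of 1726. With only the 6 libraries compared in the fit it was 1174 of 1366 and 1460 of 1885. Leaving out any library of intact or 4 dpl iris, which enter only the estimate of spread, gave between 3951 and 5393 calls.

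**Figure D2:**
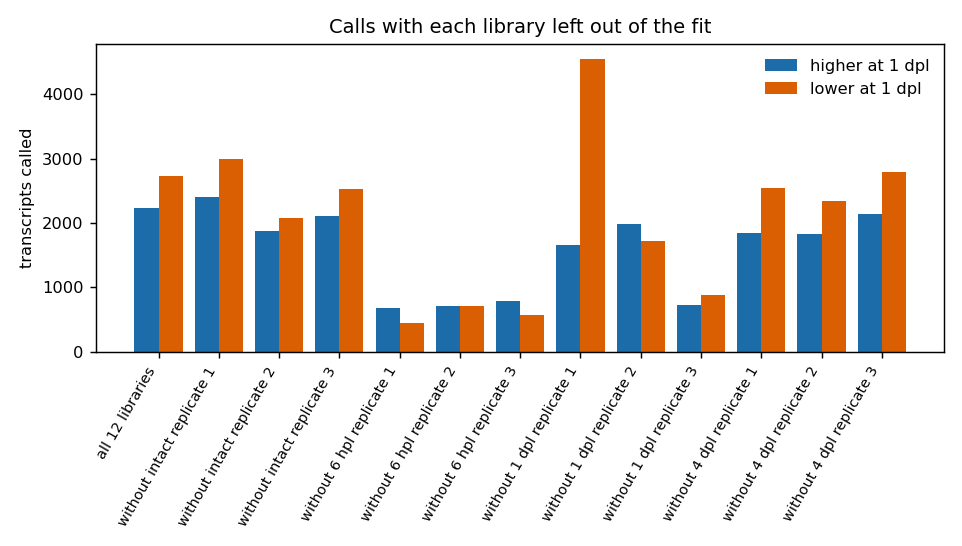
Number of transcripts called higher (blue) and lower (orange) at 1 dpl, with all 12 libraries in the fit and with each one left out in turn. The bars fall to between 438 and 886 in each direction without any 6 hpl library or 1 dpl replicate 3, and the lower calls rise to 4558 without 1 dpl replicate 1.

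A simpler measure needs no model. All 3 values at 1 dpl lay above all 3 at 6 hpl in 69495 transcripts (8.22%) and below them in 89939 (10.6%). Of the calls, 2232 of 2237 higher and 2725 of 2733 lower ones had groups that did not overlap, which is a property of the calls and no separate support for them. The lean toward lower values grew with abundance. In the class whose average across the 6 libraries was at least 1000, 5.85% lay wholly above and 14.6% wholly below at 1 dpl, whereas for averages under 10 these shares were 8.45% and 9.76%. As the sum of 1 dpl replicate 2 was the lowest of all libraries, the part of library scaling in this lean was not tested.

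Calls were made more often among transcripts of higher abundance. Of 503386 transcripts with a mean under 10, 0.193% were called, of 307025 with a mean of 10 to 100 it was 1.03%, of 31427 with a mean of 100 to 1000 it was 2.45%, and of 3796 with a mean of 1000 or more it was 2.13%. In these 4 classes 495, 1354, 348 and 40 transcripts were higher and 475, 1794, 423 and 41 were lower at 1 dpl. The size of the called differences went the other way. The median of the higher calls was 2.88 log2 units in the lowest class and 1.92 in the highest, and that of the lower calls was -2.85 and -1.75. Replicates were more spread in the lowest class than in the highest, with a median SD of 0.52 against 0.28 at 6 hpl and 0.64 against 0.56 at 1 dpl. A larger spread takes a larger difference to be called, so both trends also depend on the test.

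The 2 directions differed in where the called transcripts stood before and after the interval. Transcripts called higher at 1 dpl had a median level of 2.43 log2 units at 6 hpl and 5.20 at 1 dpl, the values on which they were called. In the libraries that do not enter this difference, their median level was 2.82 in intact iris and 5.07 at 4 dpl. The higher calls were thus lower in intact iris than at 4 dpl. Their low level at 6 hpl and high level at 1 dpl follow from the choice. The nearness of the 4 dpl and 1 dpl medians is therefore not free of it. Transcripts called lower had a median of 5.46 at 6 hpl and 2.84 at 1 dpl, again the values on which they were called, and of 4.02 in intact iris and 3.47 at 4 dpl. Their median was highest at 6 hpl, but they were picked for being high there against 1 dpl. That ranking is therefore partly set by the choice. The intact and 4 dpl levels did not enter the difference, but those libraries entered the estimate of spread. Their medians are thus not wholly free of the choice either. Over all transcripts tested the 4 medians lay between 3.13 and 3.17.

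The libraries of a time point gave nearly the same medians. This follows in part from the calling, since a transcript whose replicates are spread within any group is less likely to be called. A median over transcripts also hides the scatter of single ones. For the higher calls the medians of single libraries ranged from 2.74 to 2.93 in intact iris and from 2.52 to 2.53 at 6 hpl. The 1 dpl libraries gave medians of 5.20 to 5.32 and the 4 dpl libraries medians of 5.02 to 5.19. For the lower calls the intact libraries lay between 3.85 and 4.19 and the 6 hpl libraries between 5.40 and 5.59, while 1 dpl gave 2.79 to 3.14 and 4 dpl gave 3.48 to 3.57. As a part of the summed values of a library, the higher calls took 0.234% to 0.240% at 6 hpl and 1.05% to 1.44% at 1 dpl. They took 0.166% to 0.193% in intact iris and 1.29% to 1.38% at 4 dpl. The lower calls took 1.19% to 1.36% at 6 hpl, 0.280% to 0.377% at 1 dpl, 0.804% to 0.844% in intact iris and 0.395% to 0.427% at 4 dpl.

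**Figure D3:**
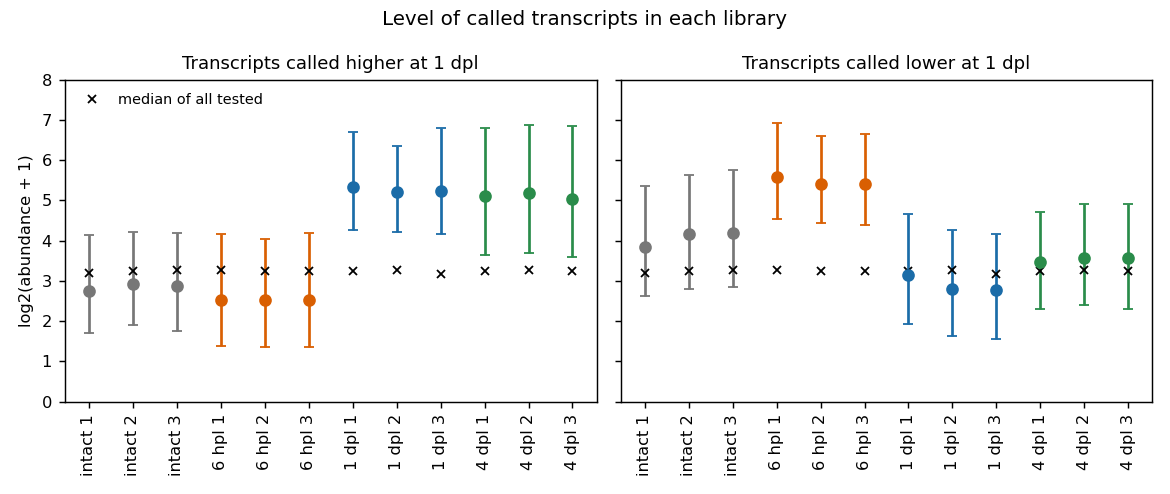
Median log2(abundance + 1) in each of the 12 libraries of the 2237 transcripts called higher (left) and the 2733 called lower (right) at 1 dpl. Points are medians over transcripts, bars span the quartiles, crosses are medians of all transcripts tested. Higher calls sit between 5.02 and 5.32 in all 1 dpl and 4 dpl libraries, and lower calls between 5.40 and 5.59 at 6 hpl. The levels at 6 hpl and 1 dpl are those on which the transcripts were called.

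The same transcripts were then compared between 4 dpl and intact iris, a difference that shares no library with the one on which they were called. Of the 2237 higher calls, 2036 (91.0%) had a higher mean at 4 dpl than in intact iris, as had 49.0% of all transcripts tested. Their median difference between 4 dpl and intact was 2.23 log2 units, against -0.02 over all, and 1692 (75.6%) were higher at 4 dpl by 1 log2 unit or more, against 13.9%. A fit of limma to the 6 intact and 4 dpl libraries alone called 1342 (59.99%) of them higher and 10 lower at 4 dpl, where it called 3.42% of all transcripts tested higher and 1.59% lower. The spread within these libraries also entered the estimate on which the transcripts were first called. Transcripts with tight replicates there were favoured in both fits, so these called shares are partly set by the choice. When the calls were made from the 6 hpl and 1 dpl libraries alone, 88.9% of 1366 higher calls had a higher mean at 4 dpl than in intact iris.

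The lower calls leaned less to one side. Of 2733, 1723 (63.0%) had a lower mean at 4 dpl than in intact iris, as had 51.0% of all transcripts tested. Within 1 log2 unit of intact iris at 4 dpl lay 1620 (59.3%), a smaller share than the 74.1% of all transcripts tested. A further 841 (30.8%) were lower by 1 log2 unit or more, against 12.03%, and 272 (9.95%) were higher by as much, against 13.9%. The fit to the intact and 4 dpl libraries called 457 (16.7%) lower and 85 (3.11%) higher, shares that are likewise partly set by the choice. With calls made from the 6 hpl and 1 dpl libraries alone, 58.3% had a lower mean at 4 dpl.

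Direction was also related to the transcript ID, whose first digit runs from 1 to 9 and the meaning of which the sources used here did not give. Transcripts whose ID began with 5 or 6 made up 54.4% of the higher calls and 22.9% of the transcripts tested, and 89.8% of their 1354 calls were higher. Those that began with 3 or 4 made up 67.1% of the lower calls and 30.7% of the transcripts tested, and 7.23% of their 1977 calls were higher. The shift was not confined to calls, since the median log2 difference of all transcripts was -0.54 for digit 3 and 0.47 for digit 5. Among the remaining digits together there were 1639 calls, of which 53.6% were higher, with 190 higher and 514 lower for digits 1 and 2, 659 and 237 for digits 7 and 8, and 29 and 10 for digit 9. The reads of each time point were assembled separately by the authors before the assemblies were merged, and the part of the assembly in these directions was not tested.

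**Figure D4:**
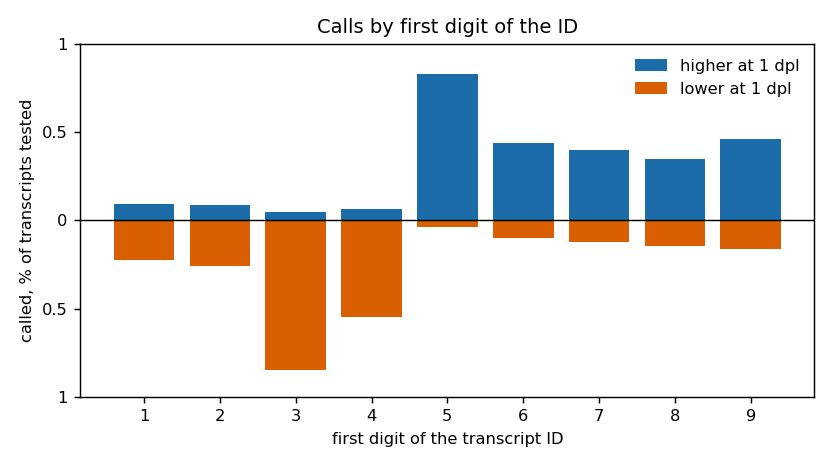
Percentage of the transcripts tested that were called higher (blue, upward) and lower (orange, downward) at 1 dpl, by the first digit of the transcript ID. Lower calls reach 0.849% for digit 3 and 0.549% for digit 4, and higher calls reach 0.831% for digit 5.

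The standing of the higher calls at 4 dpl held within each class of IDs. A higher mean at 4 dpl than in intact iris was found for 150 of 190 higher calls with digits 1 or 2 (78.9%), 134 of 143 with digits 3 or 4 (93.7%), 1080 of 1216 with digits 5 or 6 (88.8%) and 645 of 659 with digits 7 or 8 (97.9%). For all transcripts tested in these classes the shares were 28.8%, 49.4%, 53.1% and 68.0%. Lower calls had a lower mean at 4 dpl in 89.3% with digits 1 or 2, 56.5% with 3 or 4 and 60.9% with 5 or 6, against 71.2%, 50.6% and 46.9% of all transcripts tested. With digits 7 or 8 it was 134 of 237 lower calls (56.5%), against 56060 of 175176 transcripts tested.

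The 4 transcripts given in full have the largest and smallest log2 differences among calls with a mean of 10 or more, no value of 0 in the 6 libraries and no overlap between the groups, from 1551 higher and 2113 lower ones that met these terms. Having been picked for their size, they do not represent the other calls.

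Transcript 7_56005961 stood at 1.57, 4.998 and 2.80 at 6 hpl and at 265, 117 and 114 at 1 dpl. All 1 dpl libraries were far above all 6 hpl libraries, by 52.9-fold in the ratio of means, with means of 3.12 ± 1.74 and 165 ± 86.4 (SD, n = 3). The log2 difference was 5.30 (SE 0.47, limma adjusted p 7.94e-05). Values in intact iris were 1.78, 1.46 and 1.32, and at 4 dpl they were 70.6, 55.5 and 155. The transcript was thus low in intact iris, with a mean of 1.52 against 3.12 at 6 hpl, and remained high at 4 dpl.

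Transcript 6_43225095 had values of 5.49, 1.34 and 6.41 at 6 hpl and of 1086, 58.8 and 255 at 1 dpl. The groups did not overlap, but the 1 dpl libraries differed widely among themselves, with a mean of 466 ± 545 (SD, n = 3). The log2 difference was 5.72 (SE 1.07, limma adjusted p 0.0178). Over the alternatives the limma adjusted p ran from 0.00086, with the replicate number as a block, to 0.0851. The call was lost without 6 hpl replicate 1 (limma adjusted p 0.0570), 2 (0.0851) or 3 (0.0512) and without 1 dpl replicate 1 (0.0563) or 3 (0.0709). Values in intact iris were 37.9, 8.08 and 42.6, all above those at 6 hpl, and at 4 dpl they were 805, 13.0 and 84.7. Replicate 2 was the lowest at every time point.

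Transcript 3_17710283 stood at 2315, 431 and 371 at 6 hpl and at 5.86, 1.47 and 6.15 at 1 dpl. The 6 hpl libraries were all high, replicate 1 most of all. The log2 difference was -7.18 (SE 0.65, limma adjusted p 7.94e-05). It was at 1.45, 9.80 and 7.07 in intact iris and at 0.849, 1.32 and 0.987 at 4 dpl, so that of the 4 time points it was high at 6 hpl alone.

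Transcript 6_43137394 had values of 1112, 1131 and 1065 at 6 hpl, with a mean of 1102 ± 33.9 (SD, n = 3), and of 7.94, 14.7 and 10.2 at 1 dpl, with a mean of 10.97 ± 3.46. Both groups were tight and far apart. The log2 difference was -6.57 (SE 0.93, limma adjusted p 0.003226). Its replicates were spread at the other time points, with 104, 453 and 16.1 in intact iris and 196, 6.01 and 37.1 at 4 dpl. Its first digit was one whose calls were mostly higher at 1 dpl, as 438 of 539 calls with digit 6 were higher. The other named transcripts went the way of most calls with their digit. Of calls with digit 7, 374 of 491 were higher, and of those with digit 3, 1156 of 1220 were lower.

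**Figure D5:**
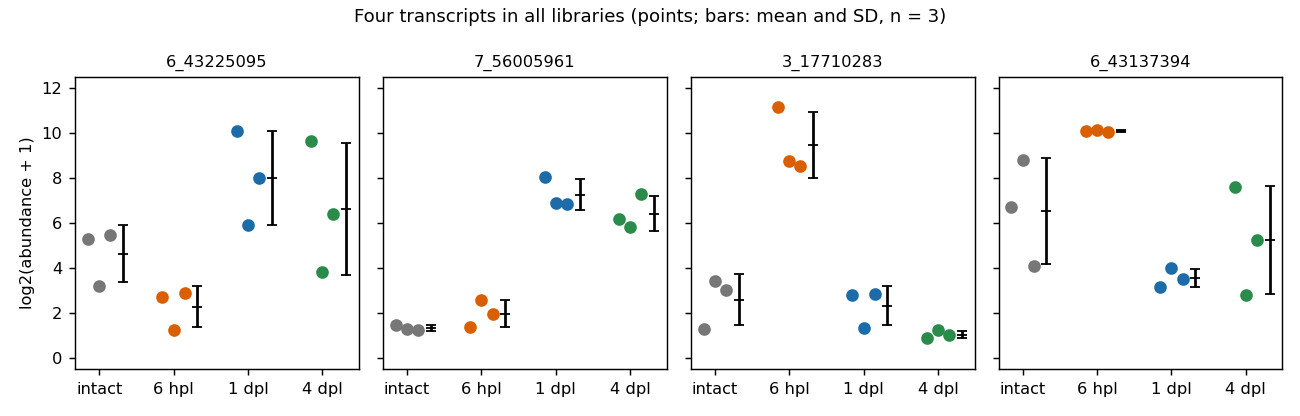
log2(abundance + 1) of the 4 transcripts in each of the 12 libraries, by time point. Points are libraries and bars give the mean and SD (n = 3). 7_56005961 and 6_43225095 rise from 6 hpl to 1 dpl, 3_17710283 and 6_43137394 fall, and 3_17710283 is high at 6 hpl alone.

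The largest falls of all were not calls. The 10 smallest log2 differences of the comparison, down to -11.09 (SE 2.60, limma adjusted p 0.0568), belonged to transcripts whose 3 values at 6 hpl were themselves far apart. Their values in intact iris, which also entered the estimate of spread, were far apart as well. Of 267 transcripts that differed by 4 log2 units or more, 64 were not called.

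Some transcripts were listed at 0 throughout one group and above 0 in all 3 libraries of the other. The filter kept such a transcript only if it reached 1 in all 3 of those libraries. Its level there was thus at least 1 by rule. Of the 845634 transcripts tested, 417 were at 0 in every 6 hpl library and 1143 at 0 in every 1 dpl library. Most were low where they were listed, with a median of the group mean of 5.51 at 1 dpl and 3.03 at 6 hpl, and 13 in each direction reached 10 in all 3 libraries. Most did not pass the test either, as limma called 92 of the 417 and 70 of the 1143, against 0.588% of all transcripts tested. The lists and the calls rest on the same values, so neither is support for the other. A listed 0 may be a failed estimate. Per library, values of 0 made up 1.38% to 2.99% of the transcripts tested at 1 dpl and 0.757% to 1.73% at 6 hpl. These ranges overlapped, as 1 dpl replicate 1 had fewer values of 0 than 6 hpl replicates 2 and 3. Of the 417 seen at 1 dpl, 293 were above 0 in all 4 dpl libraries and 102 in all intact libraries. Of the 1143 seen at 6 hpl, 137 were above 0 in all 4 dpl libraries and 1005 in all intact libraries. Of all transcripts tested, single intact libraries listed between 14935 and 24894 at 0, and single 4 dpl libraries between 16885 and 27602. The share of all transcripts tested that was above 0 in every library of either group was not computed. The counts at 4 dpl and in intact iris are therefore given without that background, and were not read as a time course.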

How the data were processed

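Dorsal irises of adult newts were profiled by bulk RNA sequencing of total RNA depleted of abundant transcripts, in 12 libraries. Per the methods, the authors trimmed reads with Trim Galore, removed ribosomal reads with Bowtie2 against Silva, assembled each condition with Trinity, merged the assemblies with DRAP runMeta and estimated abundance with Salmon, averaged over inferential replicates. No source used here names their versions. The deposited values were used as a normalised abundance signal. They were described as TPM, but no library summed to what TPM gives, and how they were scaled is not known here. They keep no read depth, so no counting interval was computed.

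Values were taken as log2(value + 1) in R 4.3.3, and the 4 group means were estimated jointly from the 12 libraries by limma 3.58.1 (variance trend, two-sided, Benjamini-Hochberg adjustment over the 845634 transcripts that reached 1 in no fewer than 3 of the compared libraries). The authors' Swish test needs inferential replicates, which were not used here. An exact permutation test of 3 against 3 cannot go below a p of 0.1 and was not used. The 4 transcripts named are the 2 highest and 2 lowest log2 differences among calls with a mean of 10 or more, no 0 and no overlap between groups. Gene lists could not be applied, as no ID is paired with a name. The members and rules were chosen with earlier results of these data known. Scaling on abundant transcripts used the median ratio over 35104 transcripts above 0 in all 12 libraries whose average in the compared ones reached 100. The fit was also run on simulated data, and no result given here rests on that run. Alternatives were other pseudocounts, filters, scalings, weights, variance models, a replicate block and each library left out.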

Additional observations from a re-analysis of the deposited data

How the results depend on the processing

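The number of calls was 1574 with a pseudocount of 0.1 (730 higher, 844 lower), 10996 with one of 10 (3834 and 7162), 2930 without a variance trend (1383 and 1547) and 3251 with only the 6 libraries compared in the fit (1366 higher). Scaling to equal totals gave 1814 lower calls. With one library left out, calls ranged from 1121 to 6210, higher calls from 683 to 2399 and lower calls from 438 to 4558. The share of higher calls with a higher mean at 4 dpl than in intact iris was 95.6% and 85.3% with pseudocounts of 0.1 and 10, 92.1% with a filter at 10, 86.3% without a trend, 88.9% with 6 libraries, 90.4% with library weights, 89.2% with equal totals, 89.5% with scaling on abundant transcripts and 87.7% to 94.2% with one library left out. The share of lower calls with a lower mean at 4 dpl was 55.3% with a pseudocount of 10, 58.4% without a trend, 58.3% with 6 libraries, 68.2% with equal totals, 71.8% with scaling on abundant transcripts and 58.6% to 69.8% with one library left out. Over all transcripts tested that share was 58.5% with equal totals and 62.7% with scaling on abundant transcripts. For these shifts the cause was not tested. Of the 4 named transcripts, 7_56005961, 3_17710283 and 6_43137394 passed the threshold under all 22 alternatives and 6_43225095 under 15, and no direction turned.

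Deviations of libraries with the same replicate number correlated between 6 hpl and 1 dpl with r of 0.028, 0.055 and 0.042, under the limit of 0.1 set for pairing, so the numbers were not taken to pair the samples. Not every library correlated best with its own number, as 1 dpl replicate 1 had r of 0.028 with 6 hpl replicate 1 and 0.041 with 6 hpl replicate 3. With the replicate number as a block there were 4339 calls, 1958 higher and 2381 lower.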

Other observations

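The 10 smallest log2 differences of the comparison belonged to a set of 21 transcripts that varied together over the 12 libraries. The set was drawn up after the values were seen, as transcripts that reached 1000 in some library and correlated at 0.95 or more with the one whose difference was -11.09, so no test was made of it. The 21 took 7.14% of the summed values of intact replicate 3, 1.34% of 6 hpl replicate 1, 0.0475% of 6 hpl replicate 2 and 0.00398% of 6 hpl replicate 3. In intact replicates 1 and 2 they took 8.07e-05% and 0.00135%, and in the 1 dpl and 4 dpl libraries at most 0.000298%. The leading transcript was at 168184 in intact replicate 3, at 43738, 1454 and 162 in 6 hpl replicates 1, 2 and 3, at 0 in all 1 dpl libraries and at 0, 18.5, 0.962, 0 and 0 in the others. The set was thus higher in every 6 hpl library than in any 1 dpl or 4 dpl library, and it also differed widely between replicates of 6 hpl and of intact iris. None of the 21 was called by limma, the smallest adjusted p being 0.0551. What these transcripts are was not tested.

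Large gaps between replicates were not limited to that set. The highest and lowest replicate differed by 100-fold or more on the abundance + 1 scale in 105 transcripts at 6 hpl and 122 at 1 dpl, and in 118 in intact iris and 172 at 4 dpl. Of the 214 with such a gap at 6 hpl or 1 dpl, 2 were called, where 0.588% of all transcripts tested were called, so a count this small says nothing of how often such transcripts are called.

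Transcripts with neighbouring ID numbers had more similar differences between 1 dpl and 6 hpl. Pearson's r of the log2 differences, after the mean of each first digit was taken off, was 0.327 for 33774 pairs 1 number apart and 0.225 for 99874 pairs 2 to 5 apart. It was 0.050 for pairs 6 to 20 apart and 0.004 for pairs 21 to 100 apart. These are correlations across transcripts of the same libraries, given as a description. Of the 4970 calls, 271 (5.45%) had another call of the same direction within 5 numbers and 11 had one of the opposite direction. Joining such same-direction calls left 4828 runs. No share to be met from the call rate alone was worked out to set beside these counts. Direction also went with the first digit, so the counts were not read as likeness of neighbours.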
